A study of Homo sapiens with 18 samples.

Results

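A set of 10 genes that pattern the midbrain and the isthmus were followed across organoids exposed to dopamine or cocaine: EN1, EN2, PAX2, PAX5, PAX8, OTX2, GBX2, FGF8, WNT1 and LMX1A. They were found by gene symbol in the deposited tables, where 10 of 10 were present among 53853 genes, and 9 passed the filter on low counts that left 18913 genes for testing. FGF8 did not pass it. The 10 genes were chosen by name with earlier results of these data in view, so their levels and differences are given as a description, and every adjusted p stands for a fit over all tested genes.

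The isthmus is the constriction between midbrain and hindbrain, and it forms where an anterior territory marked by OTX2 meets a posterior territory marked by GBX2. These homeodomain factors repress each other, and the boundary between them becomes a signalling centre that secretes WNT1 on the midbrain side and FGF8 on the hindbrain side. The paired-box factors PAX2, PAX5 and PAX8 and the engrailed factors EN1 and EN2 are switched on around that boundary and keep midbrain and cerebellar identity, while LMX1A acts in the roof plate and in progenitors of midbrain dopamine neurons. Several of these genes are also used elsewhere: GBX2 in the thalamus, PAX2 and PAX8 in inhibitory neurons of the hindbrain and spinal cord, OTX2 and LMX1A in the choroid plexus and its precursors, and PAX5 in B cells.

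The tissue was ventral forebrain organoids grown from H9, an established human embryonic stem cell line, and it was measured as bulk polyA RNA in 18 libraries. From day 10 all organoids were grown with the ventralizing morphogen SHH at 100 ng/mL and with purmorphamine, which activates the SHH pathway, at 1 µM; dosing started at day 83. The control group received 100 µM ascorbic acid, an antioxidant, in daily doses of 1 h for 1 week. The dopamine group received 1 µM dopamine, a monoamine transmitter, and the cocaine group 1 µM cocaine, a blocker of monoamine transporters, each in the same 100 µM ascorbic acid. The control + inhibitor, dopamine + inhibitor and cocaine + inhibitor groups were also given 100 µM acetylcysteine, a thiol antioxidant labelled as an inhibitor of reactive oxygen species (ROS), before each dose. Each of the 6 groups held 3 libraries, numbered 1 to 3 here only as names. All libraries are from 1 cell line. Nothing in the labels states that the libraries of a group were separate cultures, and a p-value here speaks only to the variation among these samples, part of which may be technical.

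Depth ran from 23789195 to 30327891 reads per library. Levels of a gene across libraries are CPM, read counts scaled to library size with trimmed-mean factors, and levels of different genes are compared in the deposited TPM, which also correct for length. In bulk RNA, fewer cells of a type and less RNA per cell cannot be told apart. The tissue label was checked against regional markers. The hypothalamic and optic factor RAX had 0 to 2 reads per library, and SIX6, of the same territories, had 0 reads in all 18. Other rostral factors were present, with SIX3 at a mean of 88.1 ± 27.7 TPM (SD, n = 18), PAX6 at 63.1 ± 9.31 and DLX1 at 50.3 ± 17.5. Genes of the thalamus were abundant, among them TCF7L2 at 397 ± 166 TPM and SHOX2 at 78.9 ± 20.1, and so were genes of the hindbrain such as HOXB2 at 49.6 ± 13.7. The name forebrain is kept here as the name of the protocol.

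OTX2 was the most abundant of the 10 genes. Its mean over the 18 libraries was 109 ± 33.1 TPM (SD, n = 18), with a range of 60.75 to 168.4, and it was above GBX2 in 18 of 18 libraries. GBX2 followed at 51.7 ± 35.8 TPM and PAX8 at 33.8 ± 12.2, and these neighbours crossed, GBX2 being the higher in 11 of 18 libraries. PAX2 stood at 17.5 ± 4.93 TPM, below PAX8 in 18 of 18. LMX1A at 4.96 ± 2.17 and EN1 at 4.95 ± 3.69 TPM were not separated, LMX1A being the higher in 11 of 18. EN1 was above its paralog EN2 in 16 of 18, EN2 being at 3.39 ± 5.26 TPM. PAX5, at 2.96 ± 5.7 TPM, was below EN2 in 12 of 18 libraries. WNT1 was at 2.03 ± 1.2 TPM, and PAX5 was above it in 8 of 18. The means of EN2 and PAX5 lean on 1 library, and without it they were 2.18 ± 1.1 and 1.64 ± 0.888 TPM (SD over the other libraries).

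FGF8, the ligand of the isthmic organizer, was close to absent. It had 31 reads in total over the 18 libraries and 0 to 7 per library, with a mean of 0.206 ± 0.246 TPM, and WNT1 was above it in 18 of 18. FGF17, a related ligand of the same region, was measured in every library at 10.9 to 23.1 CPM.

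**Figure D1:**
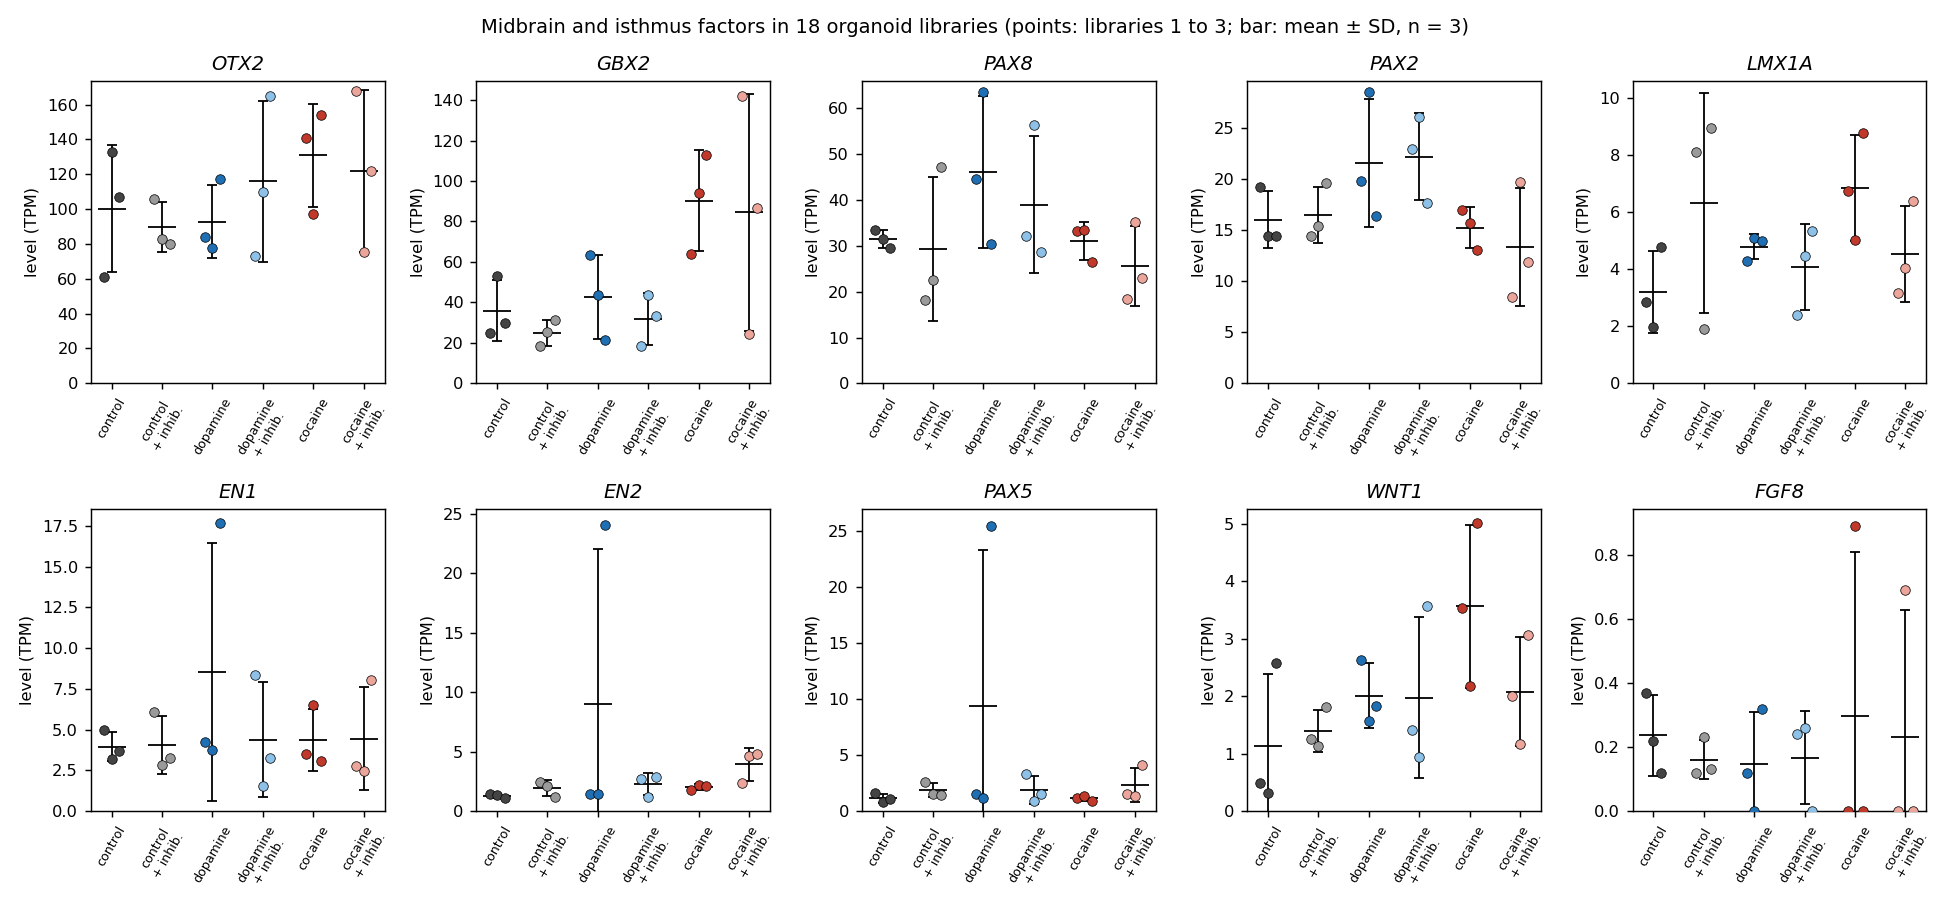
Level of each gene in TPM (vertical axis, linear, starting at 0 and scaled per gene) in the 6 groups; points are libraries 1 to 3 and bars the mean ± SD (n = 3), cut off at 0. PAX5, EN2 and EN1 have 1 high point in the dopamine group at 25.53, 24.02 and 17.66 TPM, and GBX2 is highest in the 2 cocaine groups.

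Taken over the 6 groups, none of the 9 tested genes was called at an adjusted p under 0.05 by edgeR's quasi-likelihood test in any of 7 pairwise comparisons, 2 drug by inhibitor interactions or the test for any difference among the groups. The share of all tested genes called was 0.703% for dopamine against control, 4.33% for cocaine against control, 0.0211% for cocaine + inhibitor against control + inhibitor, and 1.4% for any difference. It was 0.00529% for dopamine + inhibitor against control + inhibitor, for dopamine + inhibitor against dopamine and for the dopamine by inhibitor interaction, and 0.0% for inhibitor against control, cocaine + inhibitor against cocaine and the cocaine by inhibitor interaction. At an unadjusted p under 0.05, 2 of the 9 stood out for dopamine, 3 for cocaine, 1 for cocaine + inhibitor, 2 for dopamine + inhibitor against dopamine, 1 for the cocaine by inhibitor interaction and 3 for any difference, and none did in the other comparisons. The share of all tested genes at that level was 14.1% for dopamine, 23.1% for cocaine, 16.6% for cocaine + inhibitor, 5.58% for dopamine + inhibitor and 5.72% for the inhibitor alone. It was 8.67% for dopamine + inhibitor against dopamine, 3.21% for cocaine + inhibitor against cocaine, 8.35% and 5.26% for the dopamine and cocaine interactions, and 20.4% for any difference. DESeq2 called 1 of the 9 for cocaine and 1 for any difference and none elsewhere, and limma voom called none in any comparison. Over all genes to which DESeq2 gave an adjusted p, it called 10.5% for cocaine and 12.9% for any difference.

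The spread between libraries of a group was wide for these genes. The within-group SD of log2 CPM was 1.17 for PAX5, 1.04 for EN2, 0.87 for EN1, 0.81 for WNT1, 0.76 for GBX2 and 0.67 for LMX1A, against a median of 0.14 over all tested genes. It was smaller for OTX2 at 0.47, PAX8 at 0.46 and PAX2 at 0.35. The values of PAX5 and EN2 rested on dopamine 3: without that library they were 0.63 and 0.45, EN1 was at 0.75, and WNT1 was the widest at 0.84.

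**Figure D2:**
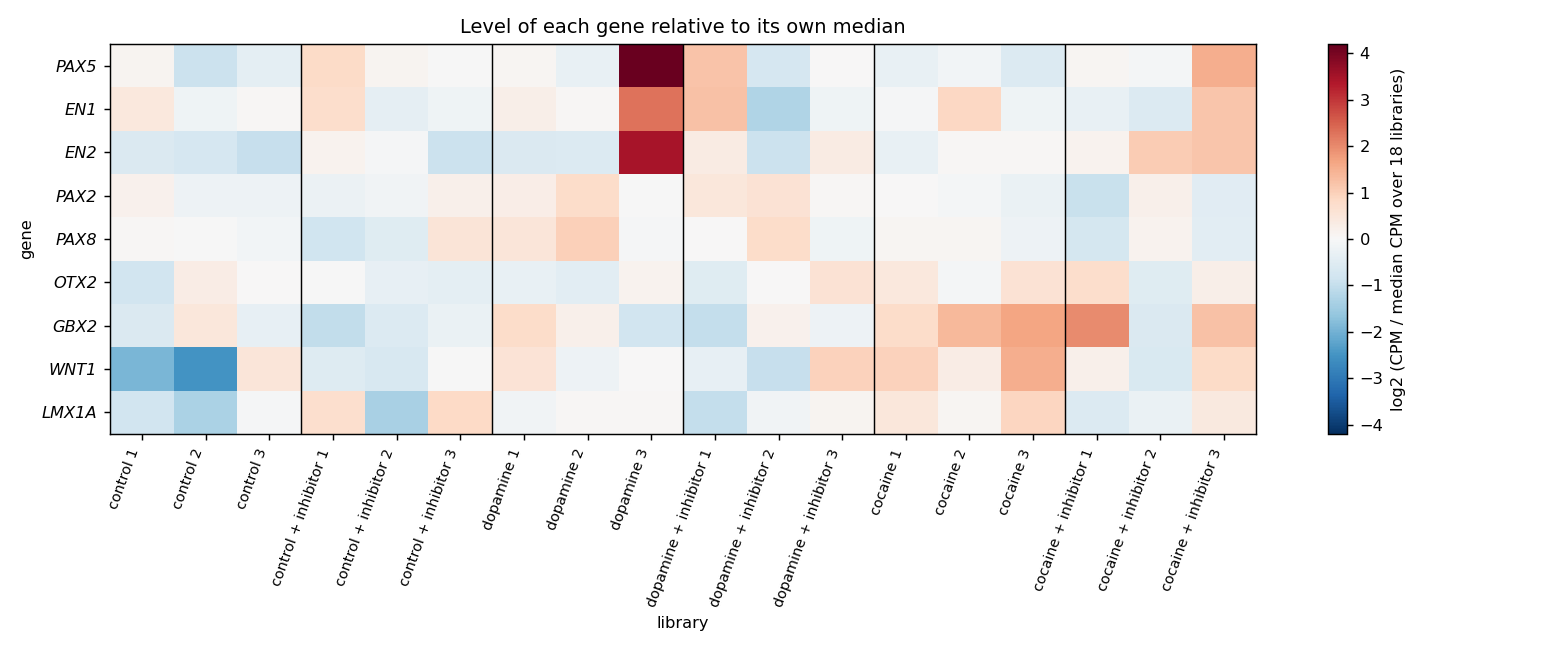
Level of the 9 tested genes (rows) in the 18 libraries (columns, grouped by treatment between vertical lines), as log2 of CPM over the gene's own median; red is above and blue below the median. PAX5, EN2 and EN1 peak together in dopamine 3, PAX2 and PAX8 peak in dopamine 2, and GBX2 is above its median in 5 of the 6 libraries that received cocaine.

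The engrailed and PAX5 transcripts formed the sharpest pattern. PAX5, which works with PAX2 to hold midbrain and cerebellar identity, was at 5, 2.46 and 3.47 CPM in control libraries 1 to 3, and at 4.86, 3.7 and 81.7 CPM in dopamine libraries 1 to 3. Only dopamine 3 was high, with 2471 reads, and the other two lay within the control range. The next highest of the 18 libraries, cocaine + inhibitor 3, was at 13.3 CPM. EN2, an engrailed factor of the midbrain and cerebellum, was at 1.33, 1.36 and 22.6 CPM with dopamine and at 1.35, 1.25 and 1.05 CPM in the controls. EN1, its paralog and a survival factor of midbrain dopamine neurons, was at 3.53, 3.04 and 14.5 CPM with dopamine and at 4.02, 2.59 and 3.03 CPM in the controls. For each of these genes the dopamine and control ranges overlapped, and dopamine 3 was the highest of the 18 libraries.

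The fitted differences between dopamine and control rested on that library. PAX5 differed by a log2 fold change of 3.05 ± 1.03 (SE; adjusted p = 0.199 by edgeR), EN2 by 2.79 ± 0.92 (adjusted p = 0.183) and EN1 by 1.13 ± 0.71 (adjusted p = 0.521). Without dopamine 3 the log2 fold changes were 0.23 for PAX5, 0.14 for EN2 and 0.03 for EN1. The authors' deposited table for dopamine lists PAX5 at a log2 fold change of 3.05 with an FDR of 0.000117 and EN2 at 2.8 with an FDR of 0.000567. Those 2 are among its 64 genes, which were 0.219% of the genes the table was tested on, as worked out from its adjusted p-values. DESeq2 gave no adjusted p for PAX5 or EN2 in that comparison.

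A further 2 genes shared the peak in dopamine 3. Over the 18913 tested genes, 3 were at least 4-fold higher in dopamine 3 than in any other library with at least 5 CPM there: SHISA3, PAX5 and EN2. SHISA3, of a family whose founding member in Xenopus holds back FGF and WNT receptors, was at 11 CPM in dopamine 3 and at no more than 1.73 CPM elsewhere. No gene met that criterion in 14 of the 18 libraries, and 2 to 4 did in each of the other 3. CNPY1, picked after its values were seen, was at 6.51 CPM in dopamine 3 and at 0.639 to 1.94 CPM in the other 17 libraries. Its zebrafish counterpart takes part in FGF signalling at the midbrain–hindbrain boundary, and in human it is the next protein-coding gene to EN2 on chromosome 7, 36297 bases away.

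The summed marker lists, of the isthmus and of other tissues, were not at their highest in dopamine 3. Such sums follow their most abundant genes and cannot show changes in scarce ones. In dopamine 3, 594 of the 18913 tested genes were at their highest. Among them were EFNA5 at 24.4 CPM, with the next library at 21.4, and EMX2 at 10.2 CPM, with the next at 7.17. The summed level of the isthmic FGF signalling genes other than FGF8 was 1100 CPM in dopamine 3, rank 3 of 18 libraries, within a range of 921 to 1130, and FGF8 had 3 reads there. Of that sum, FGFBP3 and FGFR3 made up 290 and 254 CPM. The hindbrain and spinal cord list stood at 191 CPM in dopamine 3, rank 16 of 18, and the cerebellum list at 542 CPM, rank 17. B-cell markers summed to 61.6 CPM, rank 5, with the immunoglobulin gene IGHM at 0 reads. EBF1 alone was at 58.6 CPM of that sum, against a median of 49.9 CPM over the 18 libraries. CD79A and MS4A1 were at 0.397 and 0.529 CPM in dopamine 3, against medians of 0.801 and 1.18 CPM. Total reads were the highest of the 18 libraries in dopamine 3.

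The promoters of PAX5 and EN2 are shown because these genes peaked in the same library. They are RefSeq sequences of GRCh38.p14, from 250 bases before to 50 bases after the annotated start, 5′ to 3′ on the gene's strand. PAX5 lies on chromosome 9 at 36833269 to 37034268, and its window is chr9:37034219-37034518 on the minus strand. The authors' deposited table places PAX5 at 36833274 to 37035949, so the window is not at the start of that gene model. EN2 lies on chromosome 7 at 155458129 to 155464831, and its window is chr7:155457879-155458178 on the plus strand. Capitals mark TATAAA in PAX5, found 238 bases before the start.
PAX5: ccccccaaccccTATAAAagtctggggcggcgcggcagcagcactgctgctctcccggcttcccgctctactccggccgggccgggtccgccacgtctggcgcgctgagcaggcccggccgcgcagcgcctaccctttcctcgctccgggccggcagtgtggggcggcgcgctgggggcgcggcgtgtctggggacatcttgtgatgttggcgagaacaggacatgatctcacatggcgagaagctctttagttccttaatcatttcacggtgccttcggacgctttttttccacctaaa
EN2: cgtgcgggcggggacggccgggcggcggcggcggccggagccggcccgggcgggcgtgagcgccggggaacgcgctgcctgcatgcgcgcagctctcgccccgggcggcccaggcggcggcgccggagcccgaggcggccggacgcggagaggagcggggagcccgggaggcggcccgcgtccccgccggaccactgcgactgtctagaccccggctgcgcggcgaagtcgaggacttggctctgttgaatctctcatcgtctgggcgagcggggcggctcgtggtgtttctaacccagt
Each window was searched on both strands for TAATTA, a homeodomain core found in 4.84% of 35116 promoters, TAATCC, an OTX-type core found in 6.36%, CTTTGA, a TCF/LEF core found in 12.9%, TATAAA, found in 11.5%, and CCAAT, found in 34.6%. The first 3 have no match in the windows of the 8 members listed in the table, and EN2 has no match to any of the 5. The windows held 30 CpG dinucleotides for PAX5 and 50 for EN2, against a median of 14 over all promoters, with a GC content of 65% and 78% against a median of 58.7%.

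With dopamine + inhibitor, PAX5 and EN2 overlapped control + inhibitor. PAX5 was at 10.7, 2.83 and 4.68 CPM in dopamine + inhibitor and at 8.14, 4.96 and 4.56 CPM in control + inhibitor, with overlapping ranges. EN2 was at 2.57, 1.08 and 2.59 CPM in dopamine + inhibitor and 2.26, 1.99 and 1.08 CPM in control + inhibitor. EN1 was at 6.86, 1.24 and 2.59 CPM in dopamine + inhibitor and 4.88, 2.3 and 2.63 CPM in control + inhibitor, also with overlap, and dopamine + inhibitor 1 was the second highest of the 18 libraries for EN1. Cocaine + inhibitor 3 was high in all of these genes, with 13.3 CPM of PAX5, 6.7 of EN1 and 4.57 of EN2. Against dopamine alone, PAX5 was lower by a log2 fold change of -2.31 ± 0.99 and EN2 by -2.02 ± 0.87 (both adjusted p = 0.551 by edgeR), and without dopamine 3 both changed sign, to 0.5 and 0.63. The dopamine by inhibitor interaction was -3.01 ± 1.44 for PAX5 (adjusted p = 0.611) and -2.57 ± 1.3 for EN2 (adjusted p = 0.637); without dopamine 3 these were -0.19 and 0.08.

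Across the 18 libraries PAX5 followed EN1 with Spearman's rho 0.57 and Pearson's r 0.85, and r was 0.75 without dopamine 3. PAX5 and EN2 had a rho of 0.63 and an r of 0.88, and r was 0.63 without dopamine 3. EN1 and EN2 had a rho of 0.29. These are descriptions over libraries that share treatment groups, on log2 CPM. EN2 also varied outside dopamine: it was at 2.28, 4.29 and 4.57 CPM in cocaine + inhibitor, above all 3 of control + inhibitor, with a log2 fold change of 1.06 ± 0.89 (adjusted p = 0.583 by edgeR). It was the only 1 of the 9 whose libraries did not overlap in that comparison, where 7.89% of all tested genes were higher without overlap. EN2 and PAX5 were also above all cocaine libraries in cocaine + inhibitor, a pattern that 4.19% of all tested genes showed, with log2 fold changes of 0.94 ± 0.89 and 1.04 ± 1.05 (both adjusted p = 1.0 by edgeR).

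GBX2 was highest in libraries that received cocaine. GBX2, the posterior boundary factor and a gene of thalamic neurons, was at 32, 47.6 and 58.9 CPM with cocaine, while the controls were at 12.3, 26.1 and 14.8 CPM. All 3 cocaine libraries lay above all 3 controls. The log2 fold change was 1.37 ± 0.58 (adjusted p = 0.179 by edgeR), and it ran from 1.16 to 1.77 with each library left out. In control + inhibitor GBX2 was at 9.06, 12.5 and 15.3 CPM, and in cocaine + inhibitor at 73.2, 12.2 and 43.7 CPM. Cocaine + inhibitor 1 and 3 were high and cocaine + inhibitor 2 lay within the control + inhibitor range. That comparison gave a log2 fold change of 1.81 ± 0.6 (adjusted p = 0.196), and 2.25 with an adjusted p of 0.0272 without cocaine + inhibitor 2, where 1276 genes in all were called against 4 with it. With DESeq2, GBX2 was called for any difference among the 6 groups, at an adjusted p of 0.0181.

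The dopamine groups overlapped their controls. GBX2 was at 32, 21.5 and 10.7 CPM with dopamine and at 9.32, 21.3 and 16.1 CPM with dopamine + inhibitor. The cocaine by inhibitor interaction of GBX2 was 0.43 ± 0.82 (adjusted p = 0.983). The authors' deposited tables for the inhibitor alone and for dopamine + inhibitor list none of the members, with 0.0424% and 0.0411% of tested genes listed. The smallest absolute log2 fold change in the deposited tables was 1.0. In the edgeR fit the largest change of a member was 0.97 for the inhibitor alone and -0.63 for dopamine + inhibitor, both in LMX1A. The absence of the members from those tables therefore says nothing of their p-values. The authors' deposited table for cocaine lists GBX2 at a log2 fold change of 1.38 with an FDR of 1.26e-05 among 231 genes, 0.791% of those tested, and the deposited table for cocaine + inhibitor lists it at 1.8 with an FDR of 0.000569 among 72 genes, 0.247% of those tested.

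The GBX2 promoter is shown because GBX2 was the 1 member listed in both deposited cocaine tables. In RefSeq GBX2 lies on chromosome 2 at 236161340 to 236168386, and the window is chr2:236168337-236168636 on the minus strand. The authors' deposited tables place GBX2 at 236165236 to 236168009, so the window is not at the start of that gene model. Capitals mark CCAAT, 86 bases before the RefSeq start.
GBX2: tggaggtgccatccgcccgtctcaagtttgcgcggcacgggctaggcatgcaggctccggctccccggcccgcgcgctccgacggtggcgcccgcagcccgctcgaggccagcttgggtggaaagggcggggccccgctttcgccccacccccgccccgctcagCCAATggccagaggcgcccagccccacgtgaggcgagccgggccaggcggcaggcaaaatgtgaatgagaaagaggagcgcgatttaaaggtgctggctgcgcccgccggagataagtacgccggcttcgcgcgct
It held 36 CpG dinucleotides and a GC content of 71.3%.

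The genes most like GBX2 across the 18 libraries were IGFBPL1 at a Spearman's rho of 0.94, PRC1 at 0.93, a regulator of cell division, and SP3 at 0.93, a general transcription factor. These 3 stayed at the top without cocaine + inhibitor 1, the library in which GBX2 was highest. That library also had the highest TCF7L2, the thalamic WNT effector, at 1040 CPM, the highest LHX9, another thalamic factor, at 309 CPM, and the highest of the proliferation genes MKI67 at 126 CPM and TOP2A at 199 CPM. Cocaine + inhibitor 2, where GBX2 was low, had TCF7L2 at 282, LHX9 at 48.6, MKI67 at 43.5 and TOP2A at 58.6 CPM. The thalamus and pretectum list without GBX2 and OTX2 summed to 675 to 1280 CPM in the controls and 1180 to 1450 CPM with cocaine, and to 690 to 1040 CPM in control + inhibitor and 724 to 1960 CPM in cocaine + inhibitor. Of these 14 genes, 0 were called for cocaine, with a median log2 fold change of 0.24 against 0.01 over all genes. The part of these levels in the GBX2 differences was not tested.

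OTX2 overlapped between groups. OTX2, the anterior boundary factor, was at 96.6, 67 and 110 CPM with cocaine and 40.8, 89.5 and 72.4 CPM in the controls. The log2 fold change was 0.43 ± 0.37 (adjusted p = 0.528 by edgeR). In control + inhibitor it was at 70.6, 55.8 and 53.2 CPM and in cocaine + inhibitor at 118, 50.6 and 84 CPM, again with overlap. The ratio of OTX2 to GBX2 in TPM was 2.45 to 3.6 in the controls and 1.03 to 2.22 with cocaine, with no overlap, and 2.56 to 5.73 in control + inhibitor against 1.19 to 3.06 in cocaine + inhibitor, with overlap. It was 1.33 to 5.44 with dopamine and 2.5 to 4.99 with dopamine + inhibitor. The ratio stayed above 1 in 18 of 18 libraries. OTX2 was most like CDH2, the neural cadherin (rho 0.89), PODXL (0.89) and LOXL1 (0.88), and OTX2 and GBX2 had a rho of 0.59.

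**Figure D3:**
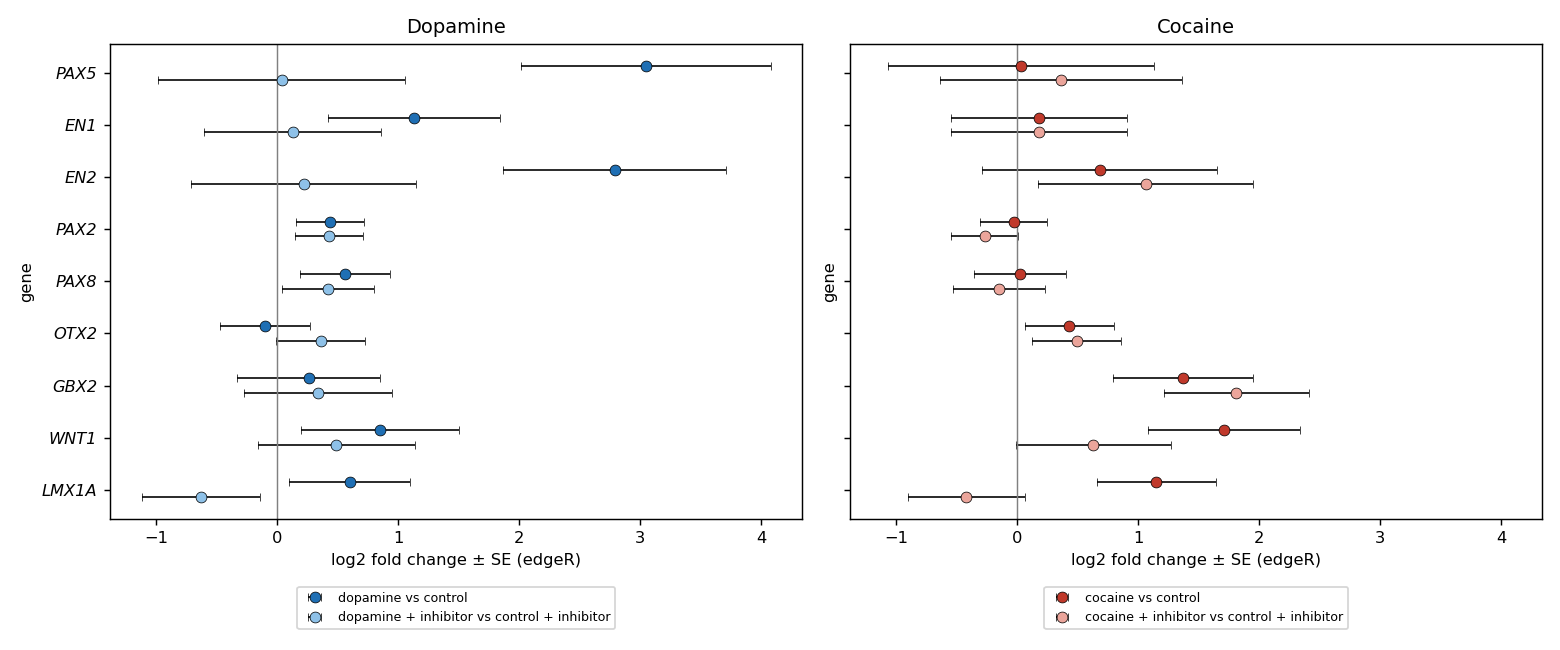
Log2 fold change of each gene with its SE from edgeR (horizontal axis; vertical line at 0) for dopamine (left) and cocaine (right), without the inhibitor (dark) and with it (light). PAX5 and EN2 stand at 3.05 and 2.79 with dopamine alone and at 0.04 and 0.22 with the inhibitor, and GBX2 stands at 1.37 and 1.81 in the 2 cocaine comparisons.

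PAX2 and PAX8 varied together. PAX2, an early marker of the isthmus, was at 82.2, 116 and 67.2 CPM with dopamine and at 77.9, 58.3 and 59 CPM in the controls. PAX8, its paralog, was at 53.4, 74.4 and 36 CPM with dopamine and at 39.1, 36.9 and 34.9 CPM in the controls. In both genes the second dopamine library was the highest of all 18 and the ranges overlapped. The log2 fold change was 0.44 ± 0.28 for PAX2 (adjusted p = 0.518 by edgeR) and 0.56 ± 0.37 for PAX8 (adjusted p = 0.551), and with cocaine it was -0.03 ± 0.28 and 0.02 ± 0.38. Across the 18 libraries the pair had a rho of 0.84 and an r of 0.84. PAX2 and OTX2 ran opposite, with a rho of -0.66.

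The genes most like PAX8 were LMO4 (rho 0.94), a LIM-only cofactor, HOXD3 (0.94), a hindbrain and spinal cord HOX gene, and SLC6A5 (0.91), the glycine transporter of inhibitory neurons. HOXD3 was itself highest in dopamine 2, at 63.3 CPM, and ran from 12.5 CPM upward. Those nearest to PAX2 were ALDH1L2 (0.91), a mitochondrial folate enzyme, LAMP5 (0.9), a membrane protein of neurons, and LOC107987163 (0.88). All 6 were again the nearest when dopamine 2 was left out. Genes of the ear, kidney and thyroid, other sites of PAX2 or PAX8, summed to 163 to 224 CPM with dopamine and 226 to 230 CPM in the controls. Much of that sum came from LHX1 and GATA3, at 53.7 and 42.3 CPM in dopamine 2, and GATA3 is also in the list of other midbrain factors. CDH16 had 0 to 1 reads per library and FOXE1 had 0 to 9, so the sum is no measure of RNA from those tissues.

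**Figure D4:**
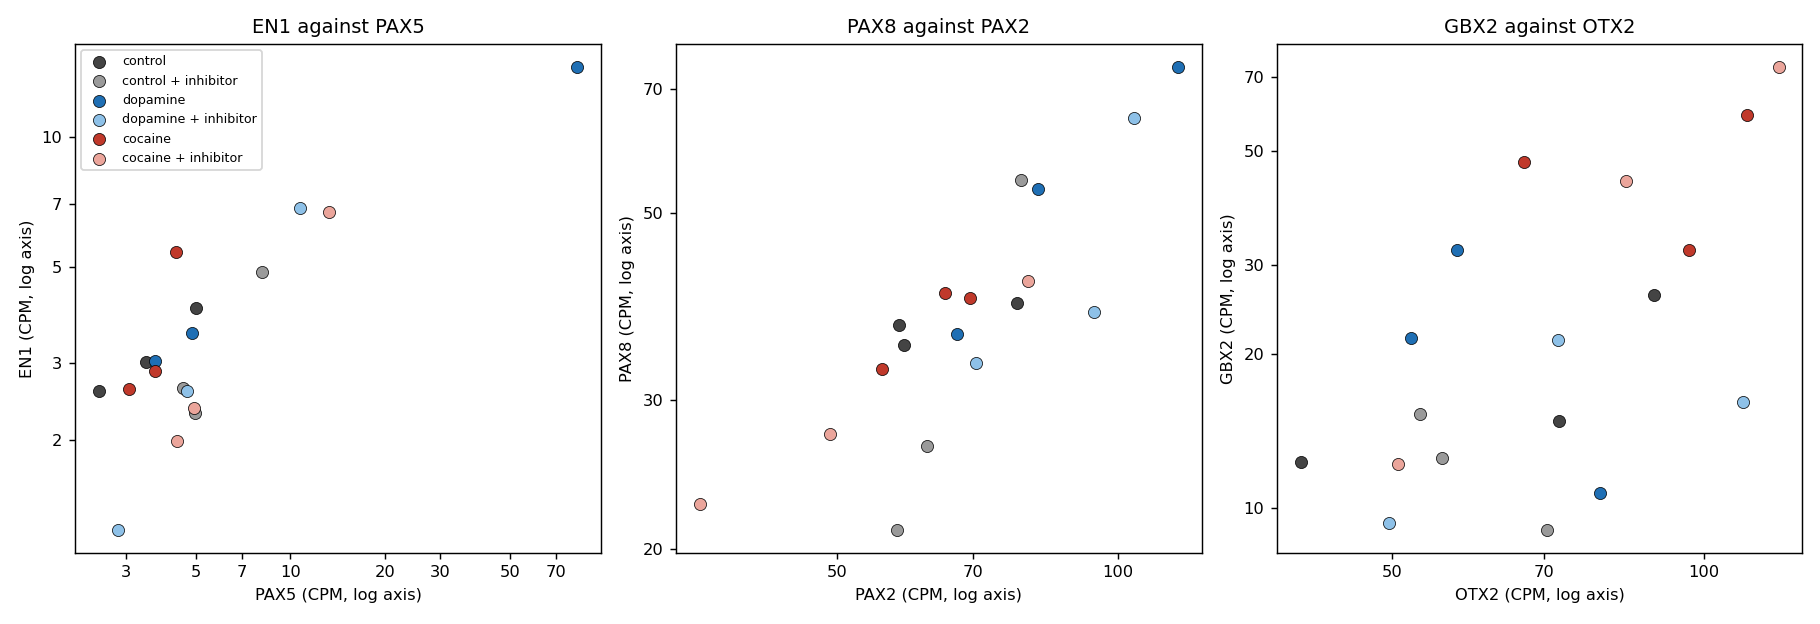
Library levels in CPM on log axes for EN1 against PAX5, PAX8 against PAX2 and GBX2 against OTX2; each point is 1 of 18 libraries, coloured by group. Dopamine 3 lies apart at 81.7 CPM of PAX5 and 14.5 CPM of EN1, PAX2 and PAX8 spread along 1 line with a rho of 0.84, and the cocaine points lie toward high GBX2.

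WNT1 and LMX1A were higher with cocaine in the fit, with few reads behind WNT1. WNT1, the midbrain-side ligand of the boundary, had 6 to 81 reads per library. Cocaine libraries were at 2.25, 1.4 and 3.32 CPM and controls at 0.301, 0.202 and 1.62 CPM, and control 3 lay inside the cocaine range. The log2 fold change was 1.71 ± 0.63 (adjusted p = 0.125 by edgeR); without control 3 it was 3.19 with an adjusted p of 0.0445, where 226 genes in all were called, and DESeq2 on all libraries gave an adjusted p of 0.0456. The authors' deposited table for cocaine lists it at 1.7 with an FDR of 0.0057. In the other groups WNT1 was at 1.69, 0.978 and 1.16 CPM with dopamine, 0.778, 0.709 and 1.12 in control + inhibitor, 0.895, 0.581 and 2.22 in dopamine + inhibitor and 1.31, 0.733 and 1.97 in cocaine + inhibitor, with no group clear of its control. The cocaine by inhibitor interaction was -1.08 (adjusted p = 0.939).

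LMX1A, the LIM-homeodomain factor of roof plate and floor plate, was at 7.46, 5.58 and 10 CPM with cocaine and 3.08, 2.12 and 5.2 CPM in the controls, without overlap. The log2 fold change was 1.15 ± 0.49 (adjusted p = 0.183 by edgeR), and the authors' deposited table for cocaine lists it at 1.15 with an FDR of 0.000112. In cocaine + inhibitor it was at 3.59, 4.4 and 7.1 CPM against 8.7, 2.06 and 9.61 CPM in control + inhibitor, where the libraries ranged widely. The interaction was -1.57 (adjusted p = 0.918). GBX2, LMX1A and EN2 were the 3 of 9 genes whose cocaine libraries all lay above the controls, in a comparison where 16% of all tested genes were higher without overlap; EN2 was at 1.65, 2.11 and 2.09 CPM with cocaine.

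LMX1A was most like B3GNT9 (rho 0.95), CPVL (0.94), a carboxypeptidase, and FGFR2 (0.93), an FGF receptor, and it had a rho of 0.64 with WNT1. The choroid plexus gene TTR, a thyroid hormone carrier, was at 198, 29.4 and 141 CPM with cocaine and 1.32, 7.44 and 21.1 CPM in the controls. The choroid plexus list without OTX2 and LMX1A summed to 293 to 330 CPM in the controls and 365 to 686 CPM with cocaine. It summed to 307 to 637 CPM in control + inhibitor and 347 to 448 CPM in cocaine + inhibitor, with overlap. Of these 16 genes 1 was called for cocaine, AQP1, a water channel of choroid epithelium, at a log2 fold change of 1.42 ± 0.37 (adjusted p = 0.0445). That call was absent without control 1, control 2 or cocaine 3, where no gene was called, and the list's median was 1.09 against 0.01 over all genes. For cocaine + inhibitor against control + inhibitor the list's median was -0.21. It was 0.48 for dopamine, 0.61 for the inhibitor alone and -0.1 for dopamine + inhibitor. Of the 16 roof plate and cortical hem genes other than LMX1A 0 were called, with a median of 0.69 for cocaine and -0.29 for cocaine + inhibitor. The part of choroid plexus RNA in the LMX1A difference was not tested.

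For the other members the nearest genes were less alike. WNT1 was most like TMEM256 (rho 0.83), RNASEH2A (0.82) and MITF (0.81), EN1 like LECT1 (0.78) and MRC2 (0.77), EN2 like TMEM102 (0.79), ASB7 (0.79) and LOC105374167 (0.75), and PAX5 like FAM196B (0.75), ARRDC2 (0.75) and EPB41L3 (0.72). For WNT1, EN2 and PAX5 only 1 of the 3 stayed among the nearest 3 without the member's highest library.

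Ligands, receptors and targets around the members gave no calls for either drug. In the isthmic FGF signalling list, 0 of 20 tested genes were called for dopamine or cocaine, with medians of 0.02 and -0.04. Its most abundant genes were FGFBP3, an FGF carrier, at 379 ± 44.8 TPM (SD, n = 18) and the receptors FGFR3 at 194 ± 11.9 and FGFR1 at 48.2 ± 4.66. In the WNT list without WNT1, 0 of 19 were called, with medians of 0.17 and 0.45; WLS, which is needed to secrete WNT ligands, was at 303 ± 97 TPM and WNT7B at 125 ± 15.4.

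Other midbrain factors were present beside the members. PAX3 ran from 11.9 to 40.5 CPM, PAX7 from 4.38 to 20.4 CPM and DMBX1 from 3.12 to 23.5 CPM, all transcription factors of the dorsal midbrain, though not of it alone. The hindbrain and spinal cord gene HOXB3 ran from 41.1 to 209 CPM, and the region that the reads of these factors came from was not tested. Of the 26 genes tested in the list of other midbrain factors, 1 was called for cocaine, where 4.33% of all tested genes were called. This was TAL1, a transcription factor of GABAergic neuron development, which fell, with a log2 fold change of -0.86 ± 0.19 (adjusted p = 0.0306 by edgeR). It was at 52.3 ± 3.69 CPM in the controls and at 28.8 ± 6.73 CPM with cocaine (SD, n = 3). The GABA genes SLC32A1 and GAD2 fell as well, with log2 fold changes of -0.68 ± 0.16 (adjusted p = 0.0333) and -0.64 ± 0.16 (adjusted p = 0.0446), 2 of 11 in their list. None of these calls was made without control 1, control 2 or cocaine 3, since the number of all genes called for cocaine was then 0. Of 13 midbrain dopamine neuron genes other than EN1 and EN2 none was called for dopamine or cocaine; NR4A2, a factor of dopamine neurons, was called for any difference (adjusted p = 0.0497). TH, the rate-limiting enzyme of dopamine synthesis, was at 0.93 to 2.79 CPM, and PITX3, a defining factor of midbrain dopamine neurons, had 0 to 3 reads per library.

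The remaining lists gave few calls. For dopamine, 0 genes of the 16 lists were called. For cocaine the forebrain factors EMX1 (-2.6 ± 0.44, adjusted p = 0.0194, at 0.742 CPM in the controls and 0.121 CPM with cocaine) and DLX6 (-1.05 ± 0.25, adjusted p = 0.0365) fell, 2 of 16, as did the neuronal genes MAPT (-0.42 ± 0.09, adjusted p = 0.0217) and DCX (-0.31 ± 0.08, adjusted p = 0.037), 2 of 16. The progenitor genes PCNA (0.42 ± 0.1, adjusted p = 0.0319) and VIM (0.38 ± 0.1, adjusted p = 0.046) rose, 2 of 14, and these calls too were absent without control 1, control 2 or cocaine 3. No gene was called for cocaine in the hindbrain and spinal cord list (26 tested), the cerebellum list (17), the eye and pigment list without OTX2 and PAX2 (12), the ear, kidney and thyroid list (11) or the B-cell list (7). For any difference among the 6 groups, EMX1 (adjusted p = 0.0281) and the B-cell surface gene MS4A1 (adjusted p = 0.0327, at 0.439 to 2.87 CPM) were called beside NR4A2.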

How the data were processed

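The authors deposited raw counts, whole numbers of reads per gene, and a second table of TPM values. The submitters' processing notes name the build GRCh38/hg38; no aligner, counter, strand setting or annotation is given in the sources used here, so overlapping and antisense genes cannot be separated. The authors' 5 deposited tables of comparisons hold a log2 fold change, a signed fold change kept here as a score, and p-values, per the file headers; the test used for them is unknown here, and comparators were found by matching group ratios of TPM.

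Counts were tested with edgeR 4.0.16 in R 4.3.3: TMM scaling, filterByExpr with a minimum count of 10, 1 mean per group over all 18 libraries, robust quasi-likelihood F-tests, two-sided, and Benjamini-Hochberg adjustment over 18913 genes, with a threshold of 0.05. The procedure was tested on simulated data. Alternatives were RLE scaling, no filter, limma voom (limma 3.58.1), DESeq2 1.42.0, a fit of the groups compared only, and each library left out in turn. Likeness is Spearman's rho of log2 CPM (prior count 2) among 15792 genes with a mean of at least 1 CPM, and the 3 highest are named, except that some items that these rules would name are not reported here. Of the 16 lists of other genes, tested without the members, those called are named and otherwise some of the 3 most abundant. The members and lists were chosen with earlier results of these data known. Promoters were matched by symbol for 8 of 10 members, not for EN1 or FGF8. Libraries were grouped by the labels' treatment field; the labels give no batch, and another cell line was not analysed here.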

Additional observations from a re-analysis of the deposited data

How the results depend on the processing

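No paired analysis was possible because the labels give no replicate number shared between groups. The count of the 9 genes called was 0 in every comparison and stayed at 0 in 128 of 133 alternatives. It became 1 for cocaine against control with DESeq2 (WNT1) and without control 3 (WNT1), 1 for cocaine + inhibitor against control + inhibitor without cocaine + inhibitor 2 (GBX2), and 1 for any difference with DESeq2 (GBX2) and without cocaine + inhibitor 2 (GBX2); with each library left out the count ran from 0 to 1 in these 3 comparisons and was 0 in the others. The cause was not tested. Of 217 alternatives to the 17 fold changes examined, 210 kept direction and side of the threshold, counting those to which DESeq2 gave no adjusted p. A further 4 changed sign. Without dopamine 3 these were EN2 and PAX5 in dopamine + inhibitor against dopamine (0.63 and 0.5) and EN2 in the dopamine by inhibitor interaction (0.08). Without cocaine + inhibitor 1 it was GBX2 in the cocaine by inhibitor interaction (-0.18). With each library left out these 4 ran from -2.53 to 0.63, -3.01 to 0.5, -3.08 to 0.08 and -0.18 to 0.88. RLE scaling moved no group mean by more than 0.272%.

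The number of all genes called, against which the members are read, moved more. For dopamine it was 133, and 484 with DESeq2, 540 with only the groups compared and 7 to 100 with a library left out. For cocaine it was 818, and 1646, 1583 and 0 to 1121, being 0 without control 1, control 2 or cocaine 3, 1 without cocaine 2 and 226 without control 3; the calls of single list genes for cocaine rest on those libraries too. For any difference it was 264, and 2054 with DESeq2, 543 without the filter and 33 to 1629 with a library left out. For cocaine + inhibitor it was 4, and 306 with DESeq2, 0 with only the groups compared and 9 without the filter. WNT1, with 6 to 81 reads per library, and FGF8, with 0 to 7, had the fewest reads; how counting error and spread between libraries shared in the errors was not tested.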
